A study of Mus musculus with 32 samples.

Results

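The tumour necrosis factor (TNF) system was followed in cultured mouse lung endothelial cells (ECs) through 10 genes. These were the ligands Tnf, Lta and Ltb, the receptors Tnfrsf1a and Tnfrsf1b, the adaptors Traf1 and Traf2, the ubiquitin ligases Birc2 and Birc3, and the inhibitor Tnip1. They were taken by gene symbol from the deposited count tables, 10 of 54532 gene rows. The list was chosen with earlier results of these libraries in view, and Tnf was selected on its own level in Dnmt1-silenced cells. The siRNA differences of Tnf and its values in si-dnmt libraries are therefore given as a description with no test, and because Tnf entered the fit through those groups, its values in si-control are given as counts and ratios with no call. Of the 10 genes, 9 passed the filter on low counts and Lta did not. Tnf passed that filter through the si-dnmt groups treated with TNF, in which it was high. Ltb passed it only through groups that received TNF, in which Ltb was high under both siRNAs.

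The cells were the Veravec line, so all 32 libraries came from 1 line. Each well was transfected a second time, a day after the first, with a control siRNA (si-control), or with siRNA directed at Dnmt1 (si-dnmt), the gene that encodes the maintenance DNA methyltransferase. Cells then received no cytokine, TNFα at 10 ng/mL (TNF), IFNγ at 1000 U/mL (IFN) or both (TNF + IFN), for 16 h. The 8 groups were si-control, si-control + TNF, si-control + IFN, si-control + TNF + IFN, si-dnmt, si-dnmt + TNF, si-dnmt + IFN and si-dnmt + TNF + IFN, with 4 biological replicates each by their labels. Every library, controls included, came from transfected cells. A pair of Dnmt1 siRNAs was used in the study, and which of them a library received is not stated.

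TNF and the lymphotoxins are related cytokines that act on nearby cells. Tnfrsf1a (TNFR1) recruits TRAF2 with the ubiquitin ligases cIAP1 (Birc2) and cIAP2 (Birc3), which build ubiquitin chains that switch on NF-κB, and NF-κB in turn drives genes that limit the signal. In endothelium this route is known for the induction of adhesion molecules and chemokines.

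The promoters of 6 members are shown because Dnmt1 acts on the cytosine of CG pairs. Those of Lta, Tnfrsf1a, Tnfrsf1b and Traf2 are not printed. The sequences are RefSeq windows of 300 bases (GRCm38.p6, 250 bases before to 50 after the start), written 5′ to 3′ along the gene's strand with each CG pair in capitals. DNA methylation was not measured in these libraries, and the files' own genome build is not given in the sources used here. Tnf lies between Ltb and Lta among the coding genes of chromosome 17, and Birc2 lies next to Birc3 on chromosome 9.
Tnf promoter, chr17:35201958-35202257, minus strand: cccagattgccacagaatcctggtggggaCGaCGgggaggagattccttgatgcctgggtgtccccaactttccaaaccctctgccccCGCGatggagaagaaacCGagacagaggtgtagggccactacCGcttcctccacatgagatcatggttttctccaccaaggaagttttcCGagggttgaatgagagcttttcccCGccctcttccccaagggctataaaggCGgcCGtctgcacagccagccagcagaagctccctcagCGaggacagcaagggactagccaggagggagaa
Ltb promoter, chr17:35194257-35194556, plus strand: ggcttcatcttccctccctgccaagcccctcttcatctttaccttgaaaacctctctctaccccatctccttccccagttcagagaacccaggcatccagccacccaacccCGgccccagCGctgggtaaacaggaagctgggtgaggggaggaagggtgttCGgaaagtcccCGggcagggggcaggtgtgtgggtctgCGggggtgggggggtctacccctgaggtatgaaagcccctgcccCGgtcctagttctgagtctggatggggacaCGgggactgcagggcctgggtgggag
Traf1 promoter, chr2:34961723-34962022, minus strand: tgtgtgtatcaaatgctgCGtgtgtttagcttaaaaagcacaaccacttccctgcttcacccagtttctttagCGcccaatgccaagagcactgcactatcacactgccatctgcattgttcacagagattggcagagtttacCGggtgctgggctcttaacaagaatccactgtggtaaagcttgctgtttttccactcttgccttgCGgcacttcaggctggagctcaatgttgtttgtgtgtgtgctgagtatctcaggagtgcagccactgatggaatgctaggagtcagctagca
Birc2 promoter, chr9:7837008-7837307, minus strand: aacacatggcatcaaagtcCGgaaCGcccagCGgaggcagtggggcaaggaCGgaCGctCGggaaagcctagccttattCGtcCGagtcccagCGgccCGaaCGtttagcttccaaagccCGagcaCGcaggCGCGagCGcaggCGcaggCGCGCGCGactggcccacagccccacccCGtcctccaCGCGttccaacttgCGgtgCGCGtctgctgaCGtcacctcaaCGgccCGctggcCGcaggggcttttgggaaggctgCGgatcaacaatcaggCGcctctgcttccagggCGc
Birc3 promoter, chr9:7873121-7873420, minus strand: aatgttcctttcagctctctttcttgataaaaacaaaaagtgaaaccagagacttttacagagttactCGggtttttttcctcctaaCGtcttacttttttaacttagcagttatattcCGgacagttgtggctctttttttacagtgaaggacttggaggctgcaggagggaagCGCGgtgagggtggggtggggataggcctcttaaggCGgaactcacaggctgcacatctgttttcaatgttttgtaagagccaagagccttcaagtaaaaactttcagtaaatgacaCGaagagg
Tnip1 promoter, chr11:54962891-54963190, minus strand: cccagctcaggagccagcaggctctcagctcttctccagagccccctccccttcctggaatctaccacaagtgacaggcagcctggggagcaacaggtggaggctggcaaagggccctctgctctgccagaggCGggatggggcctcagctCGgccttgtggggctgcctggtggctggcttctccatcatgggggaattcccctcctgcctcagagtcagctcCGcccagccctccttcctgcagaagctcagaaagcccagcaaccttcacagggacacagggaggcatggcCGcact

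The Tnf window held 11 CG pairs, the Ltb and Birc3 windows 7 each, the Traf1 and Tnip1 windows 4 each and the Birc2 window 34, against a median of 7 over 32544 promoter windows. A second RefSeq window of Birc2 held 21. Among the other members the windows held between 10 (Lta) and 28 (Traf2) CG pairs. A κB motif (GGG, then TT after any pair of bases, then CC after any base, on either strand) was found in 4.78% of all windows. It was present once in Ltb (ggaaagtccc on the shown strand, the reverse complement of the motif, 87 to 78 bases before the start), once in Tnip1 (gggaattccc, which reads the same on both strands, 57 to 48 bases before the start) and once in Traf2. A GAS-like motif, TTCNNNGAA, was found in 8.33% of all windows and in those of Lta, Ltb, Tnfrsf1a, Tnfrsf1b and Tnip1. The windows of Tnf, Traf1, Birc2 and Birc3 held neither sequence of letters, which says nothing of binding elsewhere.

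Total counts were 17362546 to 33500030 per library. Dnmt1 stood at 86.5 to 211 CPM (read counts scaled to TMM-adjusted library size) in the 16 si-control libraries and at 5.11 to 17.3 CPM in the 16 si-dnmt libraries, with no overlap. The 12 endothelial markers were present in every group, with a summed level of 3808 to 10098 CPM. The 14 leukocyte markers summed to 0.405 to 2.22 CPM, with Cd3e and Nkg7 at 0 in every library and Ptprc at or below 0.134 CPM. Markers of fibroblasts and pericytes (8 genes) summed to 9.7 to 88.3 CPM in si-control and 42.9 to 233 CPM in si-dnmt libraries. Of these markers Acta2 was at 6.94 to 67.4 and 38.6 to 227 CPM, and Dcn was higher in every group that received TNF (4.27 to 53.8 CPM) than in those that did not (0.448 to 3.12 CPM), while the 7 epithelial markers summed to 4.94 to 25.9 CPM with Sftpc at 0. In bulk libraries a change in the number of cells of a type and a change in RNA per cell cannot be told apart. Replicates 1 and 2 deviated together from replicates 3 and 4 in every group, so values are also given within these replicate sets. Dnmt1 itself differed between them, at 86.5 to 157 against 148 to 211 CPM in si-control libraries, and in the reverse order in si-dnmt libraries, at 10.3 to 17.3 against 5.11 to 9.2 CPM. The fall of Dnmt1 with its siRNA was thus larger in replicates 3 and 4, and each siRNA difference given within a set was measured at that set's Dnmt1 level. The study does not say what separates the sets.

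Added TNF raised the ligand Ltb, both TRAF adaptors, both cIAP genes and Tnip1, and lowered its own main receptor Tnfrsf1a. Between the siRNAs few members were called, while the cells' own Tnf transcript, chosen for it, was found almost only in si-dnmt libraries that had received TNF. Calls were made with edgeR's quasi-likelihood test at an adjusted p below 0.05, by the Benjamini-Hochberg method over all 15254 genes that passed the filter. Tnf was left out of these counts, which cover the other 8 members tested. Of these, Ltb passed the low-count filter only through groups that received TNF, in which it was high. Its calls under TNF and TNF + IFN against no cytokine are included below but add no support. In si-control cells, TNF changed 8 of 8 (7 higher, 1 lower), where 30.8% of all genes were called. IFN changed 4 of 8, all higher, against 14.5% of all genes. TNF + IFN changed 8 of 8 (7 higher, 1 lower) against 45.2%. In si-dnmt cells, TNF changed 8 (7 higher, 1 lower; 21% of all genes), IFN 4 (9.01%) and TNF + IFN 7 (40.2%). The median log2 fold change of the same 8 members under TNF was 1.23 in si-control and 1.09 in si-dnmt, where that of all genes was −0.01 and 0.01. The 3 cytokine comparisons of 1 siRNA share its untreated libraries.

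Between the siRNAs, 0 of these 8 members were called in untreated cells (18.5% of all genes), 0 under TNF (20%) and 0 under IFN (20.3%). Under TNF + IFN 2 were called, both lower in si-dnmt (17.7% of all genes). At an unadjusted p under 0.05 the counts were 1, 2 and 1 for the first 3, and DESeq2 called 0, 1 and 1. With the replicate number as a block the counts were 1, 1, 2 and 5 over the 4 states. The test of whether a cytokine response differed between the siRNAs called 0 members for TNF (0.0328% of all genes), 0 for IFN (0.0459%) and 0 for TNF + IFN (0.531%). DESeq2 called 0 in each of these 3, and 1, 0 and 1 had an unadjusted p under 0.05. For TNF + IFN the replicate block called 1, and replicates 3 and 4 alone called 3 for TNF and 5 for TNF + IFN. The shares of all genes given here are those of the edgeR fit without a block at the adjusted threshold. Shares for the other counts are not given, so those counts are no result about the members.

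Tnf (ENSMUSG00000024401), the ligand of both receptors, was close to absent from control cells. In the order of replicates 1 to 4, the libraries held 1, 0, 0 and 0 Tnf counts in si-control, 2, 3, 0 and 0 in si-control + TNF, 0, 0, 0 and 0 in si-control + IFN and 5, 3, 1 and 2 in si-control + TNF + IFN. In si-dnmt libraries the counts were 0, 4, 0 and 1 without cytokine, 23, 39, 13 and 11 with TNF, 0, 2, 2 and 4 with IFN and 61, 93, 38 and 42 with TNF + IFN. Only 2 groups, si-dnmt + TNF and si-dnmt + TNF + IFN, lay wholly above every other group, and they did not overlap each other. The level was 1.01 ± 0.589 CPM (SD, n = 4) in si-dnmt + TNF and 3.4 ± 1.64 CPM in si-dnmt + TNF + IFN, against 0.0567 ± 0.0691 CPM and 0.141 ± 0.0766 CPM in si-control. The 6 other groups overlapped their neighbours in order of level.

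Scaled for depth, the summed Tnf counts of si-dnmt + TNF were 19.1 (95% interval 7.88 to 60.4) times those of si-control + TNF, an exact Poisson interval that covers counting error only. Under TNF + IFN the ratio was 23.9 (95% interval 13.1 to 48.6). Within replicates 1 and 2 these ratios were 13.3 and 24.5. Within replicates 3 and 4 the TNF ratio was at least 4.6, taking 3 counts as the limit of each si-control library with 0, and the TNF + IFN ratio was 26.3. Within each set both ratios were thus above 1. Replicates 1 and 2 held more Tnf than replicates 3 and 4 in both of the high groups. The sets split the libraries on which Tnf was chosen, so these ratios and intervals are description and no support. In untreated cells the counts of 5 and 1 gave a ratio of 4.34 (95% interval 0.486 to 205), and under IFN the 8 counts of si-dnmt stood against 0 in si-control, which is under the limit that counts of 0 allow.

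Among si-dnmt cells, TNF + IFN gave 2.89 (95% interval 2.25 to 3.74) times the Tnf of TNF alone, with the higher value in 4 of 4 same-numbered pairs. In si-control cells the same ratio was 2.31 (95% interval 0.739 to 8.47). Within si-control cells, TNF + IFN gave 11 Tnf counts against 1 without cytokine, a ratio of 11.1 (95% interval 1.61 to 476), and TNF alone gave 5 against 1. These few counts carry no test. TNF is made chiefly by macrophages and T cells. The summed leukocyte markers were 0.405 to 1.19 CPM with both cytokines in si-dnmt against 0.721 to 1.01 CPM in si-control. With TNF they were 0.83 to 1.88 against 1.02 to 1.47 CPM, and the ranges overlapped in both states. Of the 14 markers, 1 had a group mean of at least 1 CPM, in si-control + TNF. The part of leukocytes in the Tnf difference was not tested. The summed fibroblast and pericyte markers were 97.1 to 150.2 CPM in si-dnmt against 39.3 to 66.7 CPM in si-control under TNF, with no overlap, and 83.3 to 143 against 53.5 to 88.3 CPM under TNF + IFN, with overlap, and their part in the Tnf difference was not tested.

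**Figure D1:**
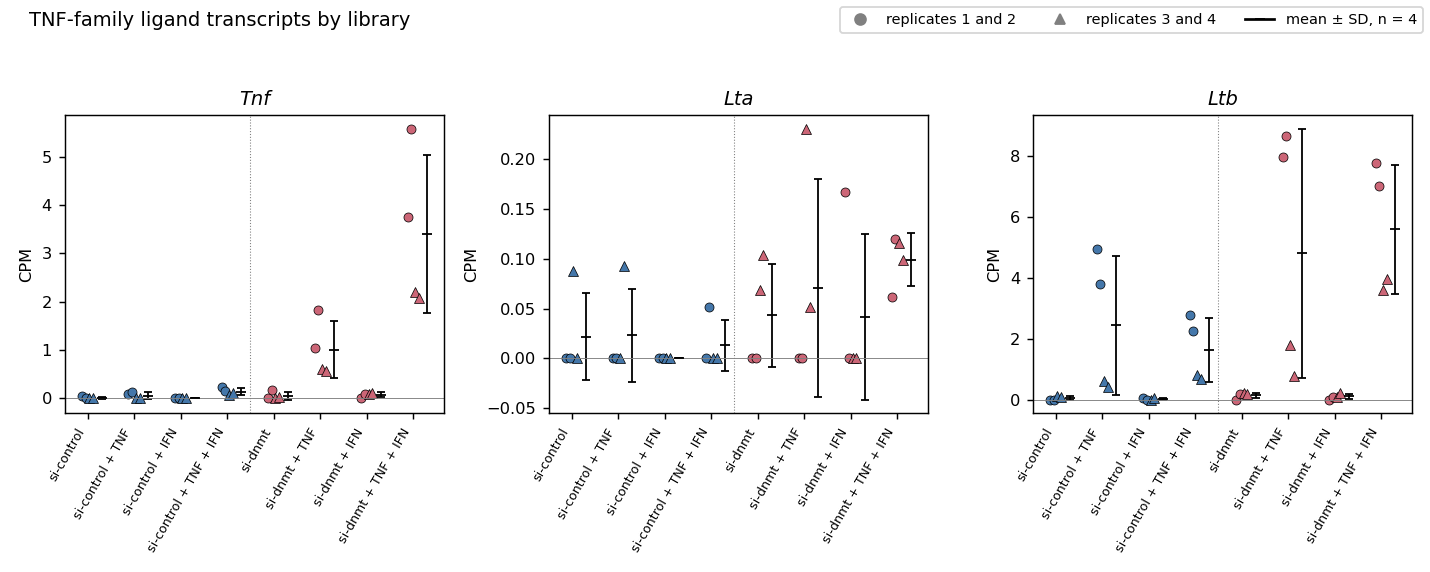
Levels of Tnf, Lta and Ltb in CPM on linear axes, by group. Points are libraries (circles, replicates 1 and 2; triangles, replicates 3 and 4; blue, si-control; red, si-dnmt), and bars give the group mean ± SD, n = 4. Tnf stands clear of 0 in si-dnmt + TNF (0.566 to 1.83 CPM) and si-dnmt + TNF + IFN (2.07 to 5.58 CPM), Lta stays at or below 0.231 CPM, and Ltb is high wherever TNF was added.

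Ltb (ENSMUSG00000024399), which forms a membrane-bound heterotrimer with Lta that signals through Ltbr, responded to TNF under both siRNAs. Its counts were 0, 0, 3 and 2 in si-control, 115, 81, 14 and 9 with TNF, 1, 0, 0 and 1 with IFN and 58, 43, 13 and 13 with TNF + IFN. In si-dnmt libraries they were 0, 4, 6 and 5, 174, 184, 39 and 15, 0, 2, 2 and 8 and 126, 117, 62 and 80 in the same order of states. Every library that received TNF lay above every library that did not. Ltb thus passed the low-count filter only through groups that received TNF, and its TNF responses are given as description with no p. The TNF ratio of summed counts in si-control was 42 (95% interval 17.7 to 131), with a fitted log2 fold change of 5.25 ± 1.02. Within replicates 1 and 2 it was at least 30.0, and within replicates 3 and 4 it was 4.59 (95% interval 1.71 to 15.5). The fitted Ltb value was 6.02 without replicate 3 of si-control and 4.65 without replicate 1 of si-control + TNF. In si-dnmt the TNF ratio was 33.7 (95% interval 20.2 to 60.7) and the log2 fold change 5.02 ± 0.86. No change with IFN alone passed the test (adjusted p = 0.825 in si-control and 0.949 in si-dnmt).

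The siRNA difference of Ltb was smaller than its TNF response. Under TNF + IFN all 4 si-dnmt libraries (7.75, 7.02, 3.59 and 3.95 CPM) lay above all 4 si-control libraries (2.79, 2.24, 0.801 and 0.688 CPM), with a log2 fold change of 1.76 ± 0.68 that missed the threshold (adjusted p = 0.0725). It passed with the replicate block (adjusted p = 0.00174) and within each replicate set (1.55 and 2.34, adjusted p = 0.000363 and 0.000137). Under TNF the groups overlapped, and the log2 fold change was 0.97 ± 0.65, adjusted p = 0.327. Within the sets it was 0.92 and 1.33 (adjusted p = 0.0101 and 0.0304). Replicates 1 and 2 held several times the Ltb of replicates 3 and 4 in si-control + TNF, si-dnmt + TNF and si-control + TNF + IFN. The TNF ratio in si-dnmt was 95.3 in the first set and 6.86 in the second, and this difference between sets was not tested. Adding IFN to TNF gave 0.608 (95% interval 0.485 to 0.76) times the Ltb counts of TNF alone in si-control and 0.992 (95% interval 0.861 to 1.14) in si-dnmt. The sets lay on opposite sides of 1 under both siRNAs, at 0.496 (95% interval 0.386 to 0.634) and 1.3 (95% interval 0.713 to 2.39) in si-control, and 0.776 (95% interval 0.656 to 0.915) and 2.59 (95% interval 1.88 to 3.62) in si-dnmt, for replicates 1 and 2 and then replicates 3 and 4.

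Lta (ENSMUSG00000024402), the soluble lymphotoxin and the gene on the other side of Tnf, held at most 5 counts in any library. Its summed counts were 2, 2, 0 and 1 in the si-control groups (none, TNF, IFN, TNF + IFN) and 5, 6, 3 and 7 in the si-dnmt groups. With TNF, the si-dnmt counts were 3.33 (95% interval 0.596 to 33.8) times the si-control counts after scaling. The summed Lta counts were thus higher in si-dnmt in every state, from few counts. Lta did not pass the low-count filter, and no difference of it was tested.

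Among the receptors, Tnfrsf1a was the more abundant and was lowered by TNF, while Tnfrsf1b was raised by each cytokine. Per kilobase of exon, group means of Tnfrsf1a ran from 45.3 to 107 CPM and those of Tnfrsf1b from 5.53 to 12.6 CPM. Tnfrsf1a (ENSMUSG00000030341), the broadly expressed receptor that carries a death domain, stood at 219.7, 228, 209 and 197 CPM in si-control and 109.7, 124, 116 and 121 CPM in si-control + TNF. These groups did not overlap, and the log2 fold change was −0.86 ± 0.11, adjusted p = 5.36e-07. In si-dnmt the fall with TNF was from 239, 221, 160.3 and 173 to 122, 128, 118 and 120.1 CPM (log2 fold change −0.70 ± 0.11, adjusted p = 2.25e-05). IFN raised Tnfrsf1a under both siRNAs (0.37 ± 0.11, adjusted p = 0.0166 in si-control, 0.37 ± 0.11, adjusted p = 0.022 in si-dnmt). With TNF + IFN the level lay between those of the single cytokines, at 158 to 196 CPM under the control siRNA (log2 fold change −0.30 ± 0.11, adjusted p = 0.0224) and 165 to 195 CPM in si-dnmt (−0.11 ± 0.11, adjusted p = 0.434). The siRNA groups of Tnfrsf1a overlapped in all 4 states, and its siRNA differences were between −0.11 and 0.08 on the log2 scale with an SE of 0.11. Within replicates 3 and 4 the siRNA libraries did not overlap without cytokine or with TNF + IFN, and the difference was −0.29 (adjusted p = 0.00973) and 0.22 (0.0463), of opposite sign, against 0.04 and −0.06 in replicates 1 and 2.

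The smaller calls of Tnfrsf1a rested on single libraries. The IFN call was lost in si-control without replicate 4 of si-control, or replicate 2 of si-control + IFN (adjusted p 0.0796 to 0.0854), and in si-dnmt without replicate 3 or 4 of si-dnmt, or replicate 1 or 2 of si-dnmt + IFN (adjusted p 0.0804 to 0.119). The call under TNF + IFN in si-control was lost without replicate 2 of si-control, or replicate 3 or 4 of si-control + TNF + IFN (adjusted p 0.063 to 0.0745).

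Tnfrsf1b (ENSMUSG00000028599), the second receptor, which lacks a death domain and binds TRAF2 directly, was highest with both cytokines. It stood at 23.6, 25.2, 26.9 and 28.5 CPM in si-control and 53.6, 46.5, 44.4 and 47.5 CPM in si-control + TNF + IFN (log2 fold change 0.88 ± 0.13, adjusted p = 1.91e-06). In si-dnmt the same states gave 24.3, 22.4, 19.2 and 18.6 and 32.2, 36, 37.1 and 39.4 CPM (0.78 ± 0.13, adjusted p = 1.47e-05). Si-control + TNF + IFN was the 1 group that lay wholly above its neighbour in order of level. IFN alone raised it under both siRNAs (0.43 ± 0.13, adjusted p = 0.021; 0.50 ± 0.13, adjusted p = 0.00986). TNF alone raised it by 0.33 ± 0.13, adjusted p = 0.0482 in si-control and 0.36 ± 0.13, adjusted p = 0.0451 in si-dnmt, with overlapping groups. Within replicates 3 and 4 it went from 26.9 to 28.5 CPM to 38.0 to 38.4 CPM in si-control. In si-dnmt that set went from 18.6 to 19.2 CPM to 27.5 to 29.7 CPM. Within replicates 1 and 2 the ranges overlapped, at 23.6 to 25.2 and 24.5 to 30.2 CPM in si-control. In si-dnmt they were 22.4 to 24.3 and 24.3 to 26.8 CPM.

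Under TNF + IFN, all 4 si-dnmt libraries of Tnfrsf1b lay below all 4 si-control libraries, with a log2 fold change of −0.41 ± 0.13, adjusted p = 0.0251. It was −0.56 within replicates 1 and 2 and −0.26 within replicates 3 and 4, and the call was lost without replicate 1 of si-control + TNF + IFN, or replicate 1 of si-dnmt + TNF + IFN (adjusted p 0.0793 to 0.0824) and without the low-count filter (adjusted p = 0.0533). In the other states the siRNA difference was −0.30 ± 0.13 (none), −0.28 ± 0.13 (TNF) and −0.24 ± 0.13 (IFN), with adjusted p of 0.101, 0.132 and 0.202. These came mainly from replicates 3 and 4, where they were −0.55, −0.42 and −0.46 against −0.06, −0.10 and −0.03 in replicates 1 and 2. Without replicate 1 of si-control + TNF (adjusted p = 0.0264) the difference under TNF was called. The TNF call was lost in si-control without replicate 1, 2 or 3 of si-control, or replicate 3 or 4 of si-control + TNF (adjusted p 0.0667 to 0.18), and in si-dnmt without replicate 2, 3 or 4 of si-dnmt, or replicate 2, 3 or 4 of si-dnmt + TNF (adjusted p 0.0604 to 0.131). The IFN call was lost in si-control without replicate 1 or 2 of si-control, or replicate 2 or 4 of si-control + IFN (adjusted p 0.056 to 0.0846), and in si-dnmt without replicate 2 of si-dnmt + IFN (adjusted p = 0.0637).

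Of the TRAF adaptors, Traf1 was called lower in si-dnmt under TNF + IFN, and both were raised by TNF. Traf1 (ENSMUSG00000026875) is an adaptor without a ubiquitin ligase domain that joins TRAF2 complexes and is itself a known NF-κB target. In si-control it stood at 22.9, 23.8, 14.1 and 13.5 CPM without cytokine, 36, 39.5, 47.3 and 46.6 CPM with TNF and 75.7, 67.9, 83.9 and 74.1 CPM with TNF + IFN. In si-dnmt the values were 16.8, 15.9, 14.3 and 13.3, 31.4, 27.4, 33.7 and 31.7 and 45.8, 49.9, 57 and 55.6 CPM. The siRNA groups did not overlap with TNF or with TNF + IFN, and overlapped without cytokine and with IFN. The siRNA log2 fold change was −0.53 ± 0.16, adjusted p = 0.0209 under TNF + IFN, a 1.45-fold lower level. Under TNF it was −0.45 ± 0.16 and missed the threshold narrowly (adjusted p = 0.051), passing with the replicate block (adjusted p = 0.0254) and with DESeq2 (0.0417).

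Both sets of replicates gave a lower Traf1 in si-dnmt with TNF (−0.36 and −0.52) and with TNF + IFN (−0.59 and −0.49). Without cytokine they differed, at −0.51 in replicates 1 and 2 and 0.00 in replicates 3 and 4, with −0.30 ± 0.17, adjusted p = 0.222 over all 4. The call under TNF + IFN was lost without replicate 3 of si-control + TNF + IFN, or replicate 1 of si-dnmt + TNF + IFN (adjusted p 0.0658 to 0.0669), and the difference under TNF was called without replicate 1 of si-control + TNF (adjusted p = 0.039). TNF raised Traf1 in both siRNAs (1.19 ± 0.17, adjusted p = 2.88e-06 in si-control, 1.05 ± 0.17, adjusted p = 3.26e-05 in si-dnmt), and TNF + IFN gave larger values (2.02 ± 0.17 and 1.79 ± 0.17, adjusted p = 7.56e-11 and 9.8e-10). IFN alone gave −0.35 ± 0.17 and −0.12 ± 0.17, neither called, although the si-control value was called without replicate 4 of si-control (adjusted p = 0.0473). The test of unequal response to TNF + IFN gave −0.23 ± 0.23, adjusted p = 0.875.

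Traf2 (ENSMUSG00000026942), the adaptor that brings the cIAPs to the receptor, rose with every cytokine treatment. It stood at 17.7 to 22.8 CPM in si-control, 21.8 to 28.3 with IFN, 33.3 to 36.1 with TNF and 39.1 to 48.8 with TNF + IFN, with log2 fold changes of 0.30 ± 0.09, 0.77 ± 0.09 and 1.11 ± 0.09 (adjusted p = 0.0205, 1.86e-07 and 4.79e-11). In si-dnmt the levels were 22.3 to 23.5, 28.9 to 30.1, 27.4 to 33.9 and 34.1 to 40.8 CPM, with changes of 0.36 ± 0.09, 0.44 ± 0.09 and 0.69 ± 0.09 (adjusted p = 0.00654, 0.000606 and 3.69e-07). The siRNA difference had opposite signs with and without TNF, at 0.18 ± 0.09 without cytokine and 0.24 ± 0.09 with IFN, but −0.15 ± 0.09 with TNF and −0.24 ± 0.09 with TNF + IFN. None of these 4 was called (adjusted p 0.0582 to 0.274). With the replicate block the differences under IFN and TNF + IFN were called (adjusted p = 0.0426 and 0.0419). The test of unequal response to TNF + IFN gave −0.42 ± 0.13 with an unadjusted p of 0.00253 and an adjusted p of 0.156. The difference under IFN was called without replicate 2 of si-control + IFN (adjusted p = 0.024), and that under TNF + IFN without replicate 2 of si-control + TNF + IFN, or replicate 4 of si-dnmt + TNF + IFN (adjusted p 0.0351 to 0.0398). The IFN call in si-control was lost without replicate 2 or 4 of si-control, or replicate 1 or 2 of si-control + IFN (adjusted p 0.0648 to 0.0989).

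The cIAP genes and Tnip1 rose with TNF and with TNF + IFN under both siRNAs, and Birc2 also rose with IFN alone. None of the 3 was called between the siRNAs over all 4 replicates, while some differences were called with the replicate block or within replicates 3 and 4. Birc3 (ENSMUSG00000032000, cIAP2) stood at 28.6, 34, 12.9 and 14 CPM in si-control, 78.2, 81.9, 73.1 and 77.7 CPM with TNF and 104, 102, 107 and 106 CPM with TNF + IFN. The log2 fold changes were 1.80 ± 0.22, adjusted p = 5.21e-07 and 2.23 ± 0.23, adjusted p = 3.78e-09. The si-dnmt values were 30.3, 29.9, 23.5 and 20.7, 78.2, 83.5, 69.2 and 74.1 and 122, 129, 103 and 94.7 CPM, with changes of 1.55 ± 0.22 and 2.11 ± 0.22 (adjusted p = 7.98e-06 and 1.19e-08). The TNF and TNF + IFN groups lay wholly above the untreated ones under both siRNAs. The siRNA difference was 0.22 ± 0.22, −0.03 ± 0.22, 0.31 ± 0.22 and 0.10 ± 0.21 in the states none, TNF, IFN and TNF + IFN, with adjusted p of 0.538, 0.955, 0.351 and 0.809. IFN alone gave 0.35 ± 0.22, adjusted p = 0.352 in si-control and 0.43 ± 0.22, adjusted p = 0.278 in si-dnmt, the latter called with the replicate block (adjusted p = 0.0414).

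Birc2 (ENSMUSG00000057367, cIAP1), the neighbour and paralog of Birc3, answered to IFN as well as to TNF. It stood at 23.6 to 32.7 CPM in si-control, 35.8 to 50.9 with IFN, 55.9 to 81.6 with TNF and 78.5 to 94 with TNF + IFN, each cytokine group above the untreated one. The log2 fold changes were 0.63 ± 0.17, adjusted p = 0.0131 (IFN), 1.27 ± 0.18, adjusted p = 2.59e-06 (TNF) and 1.63 ± 0.18, adjusted p = 1.25e-08 (TNF + IFN). In si-dnmt they were 0.71 ± 0.17, adjusted p = 0.00674, 1.14 ± 0.17, adjusted p = 2.08e-05 and 1.66 ± 0.18, adjusted p = 1.08e-08. The siRNA groups overlapped in all 4 states, with differences from −0.09 to 0.12 and an SE of 0.17. The IFN call in si-control was lost without replicate 3 or 4 of si-control, or replicate 1 of si-control + IFN (adjusted p 0.0511 to 0.0543). Birc2 and Birc3 share no exon bases in GENCODE M21. Per kilobase of exon, group means ran from 6.22 to 20.2 CPM for Birc2 and from 4.47 to 22.4 CPM for Birc3.

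Tnip1 (ENSMUSG00000020400), a ubiquitin-binding partner of the deubiquitinase A20 that restrains NF-κB, was the most abundant member with TNF when counted per kilobase of exon (146 CPM in its highest group). It stood at 118, 144, 66.1 and 65.5 CPM in si-control, 364, 401, 254 and 253 CPM with TNF and 676, 603, 399 and 393 CPM with TNF + IFN (log2 fold changes 1.69 ± 0.29, adjusted p = 4.49e-05 and 2.40 ± 0.29, adjusted p = 1.14e-07). In si-dnmt the values were 136, 135, 110.2 and 92.3, 365, 385, 215 and 214 and 474, 543, 344 and 325 CPM (changes of 1.32 ± 0.28, adjusted p = 0.00122 and 1.83 ± 0.29, adjusted p = 7.11e-06). Within each replicate set the TNF groups were far above the untreated ones, and replicates 1 and 2 exceeded replicates 3 and 4 in all 8 groups. No change of Tnip1 with IFN alone passed the test (adjusted p = 0.763 in si-control and 0.819 in si-dnmt). The siRNA difference was 0.27 ± 0.28 without cytokine, −0.11 ± 0.28 with TNF, 0.27 ± 0.28 with IFN and −0.30 ± 0.28 with TNF + IFN, none called (adjusted p 0.523 to 0.832). With the replicate block, which takes the spread between sets out, it was called higher in si-dnmt without cytokine (0.33, adjusted p = 0.0101) and with IFN (0.32, 0.0134), and lower with TNF + IFN (−0.29, 0.024). The block also called an unequal response of Tnip1 to TNF + IFN between the siRNAs (−0.62, adjusted p = 0.00798), where the fit without it gave −0.56 ± 0.39, adjusted p = 0.761.

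**Figure D2:**
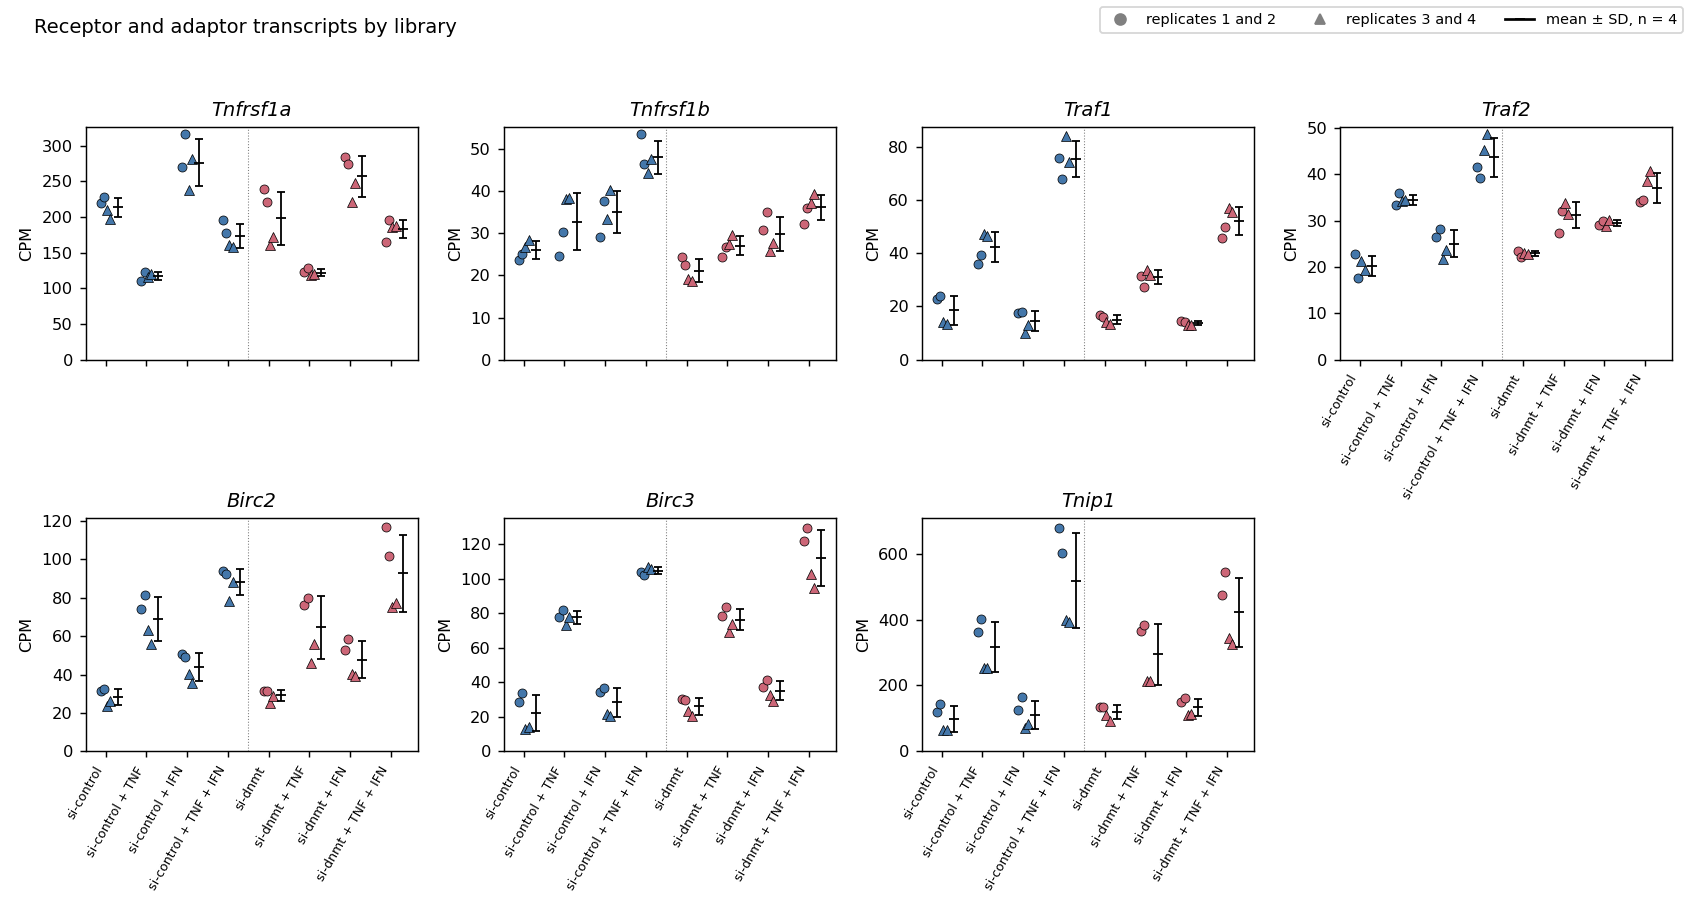
Levels of the receptors, TRAF adaptors, cIAP genes and Tnip1 in CPM on linear axes from 0, by group. Points are libraries (circles, replicates 1 and 2; triangles, replicates 3 and 4; blue, si-control; red, si-dnmt), and bars give the group mean ± SD, n = 4. Tnfrsf1a drops with TNF, the others rise with it, and Traf1 with TNF + IFN is at 67.9 to 83.9 CPM under the control siRNA and at 45.8 to 57 CPM under si-dnmt.

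**Figure D3:**
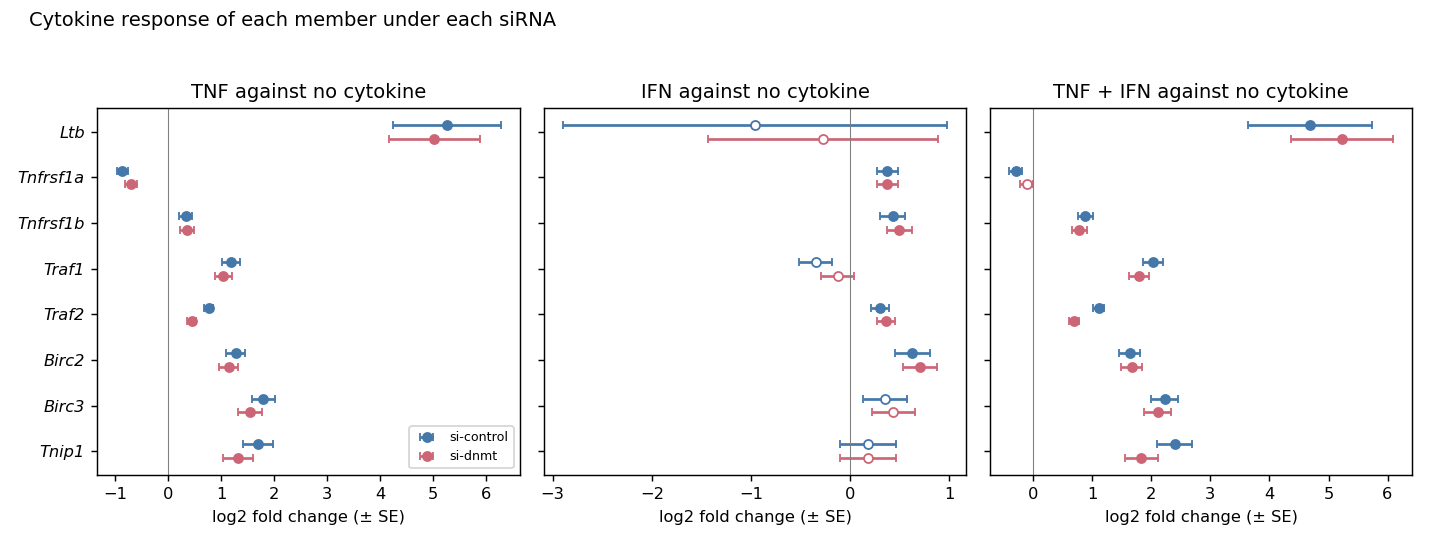
Log2 fold change ± SE of each tested member other than Tnf after TNF, IFN or TNF + IFN, each against no cytokine, in si-control (blue) and si-dnmt (red); filled points were called. Under TNF the values of Tnfrsf1a lie left of 0 and all others right of it under both siRNAs, and 0 differences between the siRNAs were called. Ltb passed the low-count filter only through groups that received TNF, so its points with TNF are description.

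The replicate sets changed what could be seen between the siRNAs. In untreated cells, replicates 1 and 2 gave Birc3 and Tnip1 differences of −0.05 and 0.06 on the log2 scale, and replicates 3 and 4 gave 0.72 and 0.62 (adjusted p = 6.93e-06 and 6.49e-06). The si-control libraries of replicates 3 and 4 were the lower ones for both genes, at 12.9 and 14 CPM for Birc3. Under IFN the same contrast appeared, with Birc3 at 0.14 and 0.53 and Tnip1 at 0.09 and 0.53 in the first and second set. With TNF the sets gave 0.01 and −0.07 for Birc3. Within replicates 3 and 4 alone the response to TNF was smaller in si-dnmt for Birc3 (−0.79, adjusted p = 0.000617), Tnip1 (−0.86, 7.99e-05) and Traf1 (−0.52, 0.0398). Within replicates 1 and 2 the same values were 0.06, −0.09 and 0.15, none called. The difference between the sets was not tested.

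**Figure D4:**
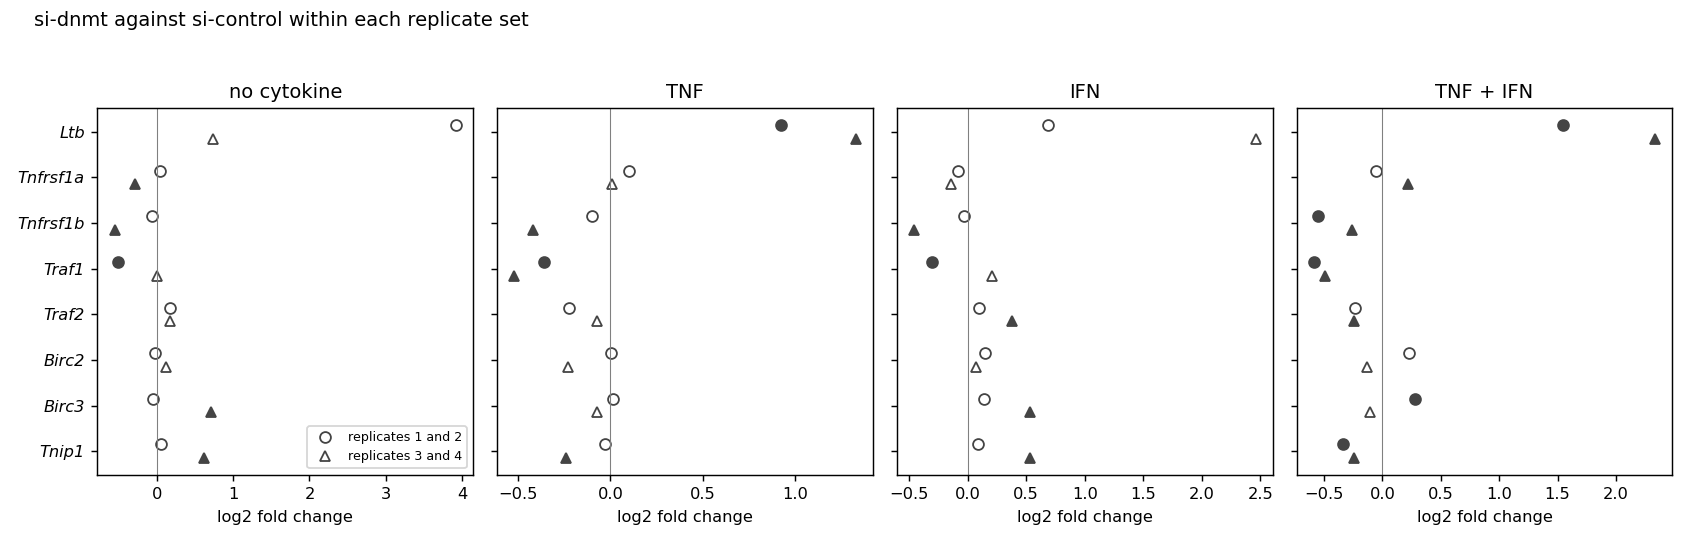
Log2 fold change of si-dnmt against si-control for each tested member other than Tnf, fitted within replicates 1 and 2 (circles) and within replicates 3 and 4 (triangles), in each cytokine state; filled points were called in that fit. Traf1 is lower in both sets with TNF and with TNF + IFN, whereas Birc3 and Tnip1 without cytokine are called in replicates 3 and 4 only, at 0.72 and 0.62.

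The rest of the pathway was followed in a list of 31 genes taken by textbook role, covering the sheddase and lymphotoxin receptors, the receptor complex, other TRAF and IAP adaptors, kinases, feedback inhibitors and the death arm, and all 31 were tested. In si-control, TNF changed 14 of 31 genes (11 higher, 3 lower), where 30.8% of all genes were called (16.1% higher, 14.6% lower). The largest rises were those of the feedback inhibitors Tnip3 (5.30 ± 0.67) and Tnfaip3 (2.64 ± 0.18), which encodes A20, and of the LIGHT receptor Tnfrsf14 (1.68 ± 0.21). The lymphotoxin receptor Ltbr (−0.64 ± 0.12), Traf4 (−0.64 ± 0.23) and the linear ubiquitin subunit Sharpin (−0.36 ± 0.09) fell. The Traf4 call was lost without replicate 3 or 4 of si-control, or replicate 1, 2 or 3 of si-control + TNF (adjusted p 0.0592 to 0.112). IFN changed 6 of 31 genes (5 higher, 1 lower), where 14.5% of all genes were called (8.56% higher, 5.92% lower). Tnfrsf14 (3.38 ± 0.21), Rnf31 (1.10 ± 0.12), the catalytic subunit of the linear ubiquitin ligase, and the kinase adaptor Tab2 (0.39 ± 0.12) rose most, and Traf4 fell (−1.23 ± 0.23). The Tab2 call was lost without replicate 1 or 3 of si-control, or replicate 3 of si-control + IFN (adjusted p 0.058 to 0.0984). TNF + IFN changed 18 of 31 genes (16 higher, 2 lower), where 45.2% of all genes were called (23.5% higher, 21.6% lower), with the largest rises in Tnip3 (3.95 ± 0.71), Tnfaip3 (3.53 ± 0.19) and Tnfrsf14 (3.31 ± 0.21) and falls in Traf4 (−1.87 ± 0.24) and Ltbr (−0.40 ± 0.12). The Ltbr call was lost without replicate 2 of si-control (adjusted p = 0.0699). The Tnip3 value rested on few untreated counts, all of them in replicate 2 of si-control, and without that library it was 8.49 with TNF and 7.14 with TNF + IFN. Tnip3 thus passed the low-count filter through groups other than si-control, and its rank and calls here are description. Without si-control replicate 3 the count under IFN was 3.

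Several of these partner genes were called between the siRNAs in every state. Without cytokine si-dnmt differed in 11 of 31 genes (6 higher, 5 lower), where 18.5% of all genes were called (9.58% higher, 8.88% lower). Under TNF the count was 10 of 31 genes (6 higher, 4 lower), where 20% of all genes were called (10.4% higher, 9.59% lower). Under IFN it was 9 of 31 genes (8 higher, 1 lower), where 20.3% of all genes were called (10.8% higher, 9.54% lower). With the replicate block 17 were called under IFN. Under TNF + IFN the count was 12 of 31 genes (10 higher, 2 lower), where 17.7% of all genes were called (8.97% higher, 8.72% lower). Leaving out any 1 of the 8 libraries gave 7 to 9 under TNF + IFN, the fewest without si-dnmt + TNF + IFN replicate 4. These shares of all genes belong to the main fit. The counts with the block or with a library left out have no share to be set against. The medians of the list were 0.12, 0.15, 0.11 and 0.11 in the states none, TNF, IFN and TNF + IFN, where those of all genes were between −0.01 and 0.00. Of the 31 genes, 6 were called in all 4 states, picked out here after their values were seen: Tnfaip3, Traf3, Traf6, Casp8 and Map3k7 were higher in si-dnmt and Cyld was lower. How many of all genes were called in all 4 states was not counted, so the 6 are no result about the list.

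Tnfaip3 was higher in si-dnmt by 1.22 ± 0.17 without cytokine, 0.88 ± 0.17 with TNF, 1.20 ± 0.17 with IFN and 0.72 ± 0.17 with TNF + IFN. Cyld, a deubiquitinase that, like A20, removes the chains built at the receptor, was lower, with values of −0.90 ± 0.16, −1.05 ± 0.16, −0.86 ± 0.16 and −0.76 ± 0.16. The pair of deubiquitinases thus went in opposite directions. Of the adaptors, Traf6 was higher under TNF (0.50 ± 0.10), Traf3 under IFN (0.91 ± 0.12), Traf4 under IFN (0.89 ± 0.23) and TNF + IFN (0.91 ± 0.24), and Traf5 under TNF + IFN (0.71 ± 0.23). Tnfrsf14 was higher without cytokine (1.41 ± 0.21) and with TNF (0.82 ± 0.19). The initiator caspase gene Casp8 was higher without cytokine (0.70 ± 0.11). Along with Cyld, lower calls in si-dnmt were those of the caspase inhibitor Xiap without cytokine and with TNF (−0.75 ± 0.26 and −0.78 ± 0.26), the kinase adaptor Tab1 without cytokine (−0.73 ± 0.19), the caspase-8 inhibitor Cflar with TNF (−0.59 ± 0.20) and the linear-chain deubiquitinase Otulin with TNF + IFN (−0.22 ± 0.07).

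Several of these calls were near the threshold. That of Xiap in untreated cells was lost when 1 library was left out, without replicate 1, 2 or 4 of si-control, or replicate 3 or 4 of si-dnmt (adjusted p 0.0715 to 0.146), and with TNF without replicate 1 or 2 of si-control + TNF, or replicate 3 or 4 of si-dnmt + TNF (adjusted p 0.081 to 0.131). That of Cflar was lost without replicate 1 or 2 of si-control + TNF, or replicate 3 or 4 of si-dnmt + TNF (adjusted p 0.0739 to 0.126). Under TNF + IFN those of Traf4, Traf5 and Otulin were lost, respectively, without replicate 4 of si-dnmt + TNF + IFN (adjusted p = 0.0536), without replicate 1, 2 or 3 of si-control + TNF + IFN, or replicate 3 or 4 of si-dnmt + TNF + IFN (adjusted p 0.0577 to 0.104), and without replicate 1, 2 or 4 of si-control + TNF + IFN, or replicate 1, 2 or 3 of si-dnmt + TNF + IFN (adjusted p 0.072 to 0.107). When each library was left out in turn, the calls of Tnfaip3 and Cyld held in all 4 states, as did those of Traf3 under IFN, Traf6 under TNF, Casp8 and Tab1 without cytokine, and Tnfrsf14 without cytokine and with TNF. For the other states of these genes the results with a library left out are not given.

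**Figure D5:**
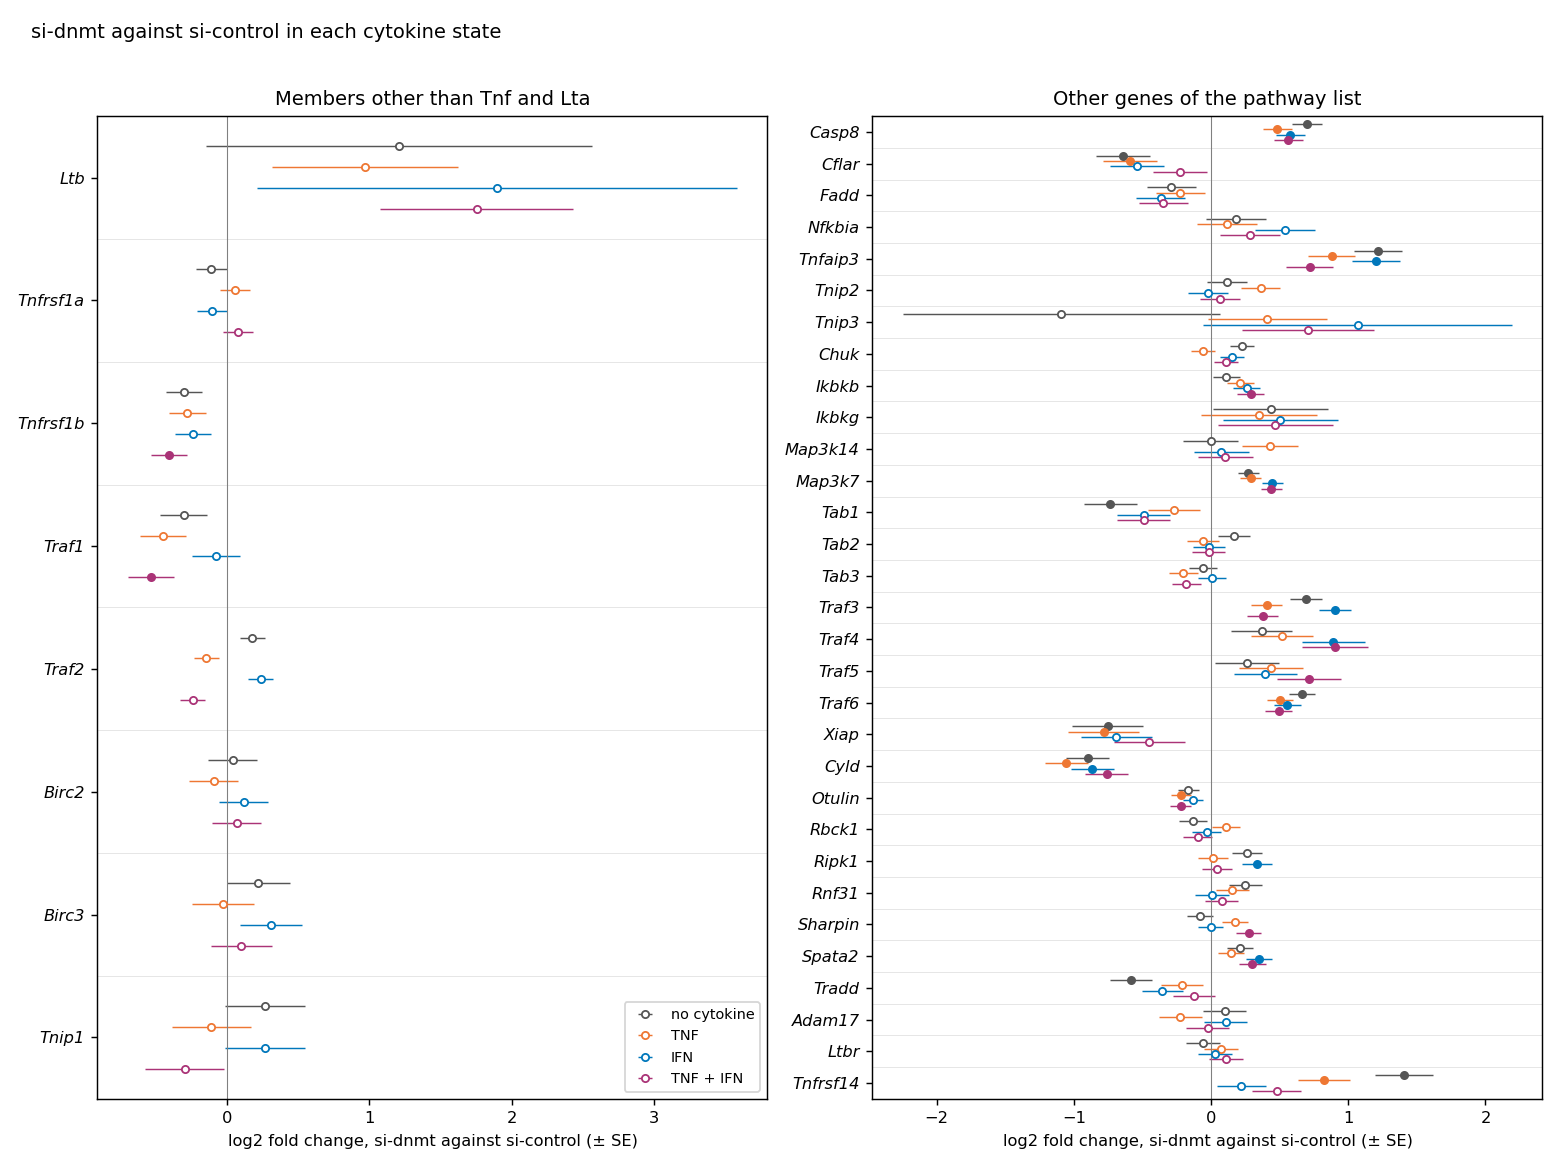
Log2 fold change ± SE of si-dnmt against si-control in 4 cytokine states (colours), for the tested members other than Tnf (left) and the 31 pathway genes (right); filled points were called. Among the members only Traf1 and Tnfrsf1b under TNF + IFN are filled, while Tnfaip3 and Casp8 to the right of 0 and Cyld to the left are filled in all 4 states.

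Across the 32 libraries, which share the cytokine design, the TNF-induced members moved together. Pearson's r of log2(CPM + 0.1) was 0.965 between Birc3 and Tnip1, 0.935 between Birc2 and Birc3 and 0.904 between Traf1 and Birc3. After subtraction of the group means, so that only differences between replicates of a group were left, r was 0.807, 0.657 and 0.737, values that include the split between the replicate sets. Tnf and Ltb had r = 0.811, and 0.723 within groups. Most groups held few or no Tnf counts, and under TNF both genes were higher in replicates 1 and 2, so these values include count steps and the sets. Tnfrsf1a ran against Ltb (−0.679). Within groups Traf1 ran against Ltb (−0.471), although both rose with TNF, and the part of the replicate sets in this value was not tested. These correlations are descriptions over libraries that share groups and sets.

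The 5 genes whose levels over the 32 libraries were most like that of Tnf, by Pearson's r among 15253 other genes (log2 CPM, prior count 2), were Lhx2 (0.912), Hcls1 (0.899), Cd69 (0.888), Il27 (0.88) and Bank1 (0.879). Lhx2 encodes a LIM-homeobox transcription factor, Cd69 an early activation antigen of lymphocytes and Il27 a subunit of interleukin-27. With both cytokines Il27 was at 3.13 ± 1.15 CPM (SD, n = 4) in si-control cells and 21.1 ± 6.64 CPM in si-dnmt cells, and Lhx2 at 0.219 ± 0.115 and 3.59 ± 0.686 CPM. Cd69 and Bank1 were also highest in si-dnmt + TNF + IFN, at 1.35 ± 0.366 and 2.5 ± 0.65 CPM. Hcls1 differed from these in being expressed throughout, at 92.2 ± 4.14 CPM in untreated si-control cells and 137 ± 2.69 CPM in si-dnmt + TNF + IFN. Within groups the correlations with Tnf were between 0.0369 and 0.477, so the likeness lay mainly between groups, and these genes were picked for it.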

How the data were processed

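Bulk RNA-seq libraries (8 groups of 4) were analysed from the per-library tables of whole read counts per gene that the authors deposited, made from reads trimmed with cutadapt 4.9 and counted with featureCounts, with no normalization. FastQC 0.12.1, MultiQC 1.27.1 and DESeq2 are also listed in the submitters' processing notes, and the sources used here give no aligner, genome build, annotation or strand setting. Without the strand setting, reads of antisense or overlapping genes cannot be told apart, although the members share no exon bases with other genes in GENCODE M21, which carried 54495 of 54532 identifiers. The merged table equalled the per-library tables in every cell. The members and gene lists were chosen with earlier results of these data known.

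Genes were kept by edgeR 4.0.16 filterByExpr (minimum count 10), which left 15254, and scaled by TMM (factors 0.880 to 1.09). All 32 libraries were fitted with 8 group means by glmQLFit, and contrasts were tested two-sided by glmQLFTest in R 4.3.3, with Benjamini-Hochberg adjustment over all genes tested and a threshold of 0.05. The SE is the absolute log2 fold change divided by the square root of F. Total counts of 17362546 to 33500030 mean that 1 count is near 0.0479 CPM at the median. For ligands with few counts, depth-scaled ratios of summed counts carry 95% exact Poisson (Clopper-Pearson) intervals, and a library with 0 counts was taken to allow 3; both cover counting error only. Same-numbered replicates deviated together in every contrast (r 0.297 to 0.617). So did libraries of the same replicate set from different groups (r 0.209 to 0.617), against −0.59 to −0.239 across the sets. The shared deviation is thus shown for the sets, and a pairing by number is not shown beyond it. The main calls come from the fit without a block, which leaves this deviation in the spread. All 10 members are named, with the called genes of the pathway list that changed most (at most 3 in each direction per contrast) and the 5 genes most like Tnf. Alternatives were RLE size factors, DESeq2 1.42.0, no filter, the replicate block, each replicate set alone, only the libraries compared, and leaving out each library. The fit was tested on simulated data. Tnf was left out of the counts of calls and no test of it is given, because it passed the filter through the groups it was chosen on. Ltb, which passed the filter only through groups that received TNF, was kept in those counts.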

Additional observations from a re-analysis of the deposited data

Results flagged for a closer look

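Of 71 groups of 4 libraries tested over the 9 tested members, 2 held a library far from the other 3. This is no more than the about 1 in 20 that chance gives. Both are low counts, where a step of few counts can meet the rule by itself. Tnf in si-control replicate 1 was at 0.0469 CPM, from 1 count, with the other 3 libraries at 0. Ltb in si-dnmt replicate 1 was at 0 CPM, from 0 counts, with the other 3 at 0.171 to 0.205 CPM.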

How the results depend on the processing

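No result reversed its direction in an alternative that called it. For the members other than Tnf between the siRNAs (states none, TNF, IFN and TNF + IFN; 0, 0, 0 and 2 called), the replicate block called 1, 1, 2 and 5, replicates 1 and 2 alone 1, 2, 1 and 5, and replicates 3 and 4 alone 4, 4, 4 and 6. DESeq2 called 1 under TNF and 1 under IFN, the fit of only the libraries compared 1 under TNF, and the fit with no low-count filter 1 under TNF + IFN. For the interactions with TNF and with TNF + IFN (0 and 0), replicates 3 and 4 alone called 3 and 5, and the block called 1 for TNF + IFN. For IFN in si-control (4 called), only the libraries compared gave 1. For the pathway list between the siRNAs (11, 10, 9 and 12 called), replicates 3 and 4 alone called 17, 18 and 17 in the states none, TNF and IFN, the block 17 under IFN, and under TNF + IFN no low-count filter gave 6 and only the libraries compared 7. For IFN in si-control (6 pathway genes), the sets alone gave 11 and 10. Leaving out 1 library in turn, the member counts between the siRNAs ranged over 0 to 2 (TNF), 0 to 1 (IFN) and 0 to 3 (TNF + IFN), those under IFN over 1 to 4 in si-control and 2 to 4 in si-dnmt, and the pathway counts over 7 to 9 (siRNAs, TNF + IFN) and 3 to 6 (IFN in si-control). The replicate block changed no other call of a named gene than the 9 it added, each given with its comparison. The cause of these changes was not tested, except that the replicate sets hold 2 libraries a group and that fits of fewer libraries estimate the spread from fewer. RLE size factors changed no count by over 1.5 times. Shares of all genes called are given for the edgeR fit without a block alone. The counts of the alternative fits therefore have no share to be set against. Lta and the untreated Tnf level are limited by counts of 0 to 5.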
